A study of Macaca mulatta with 6 samples.

Results

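The genes of megakaryocytes and platelets PF4, PPBP, ITGA2B, ITGB3, GP1BB, SELP, CLEC1B, VWF, TUBB1 and TREML1 were followed through 6 RNA libraries made from single rhesus macaque blood colonies. They were chosen by gene symbol, 10 of the 32386 rows of the count table, and a symbol standing on several rows was read from the one with the most counts. The libraries came from 3 wild-type colonies (WT) and from 3 colonies with the label TET2+/-, that is, carrying a predicted loss-of-function mutation on 1 of the TET2 alleles (uniallelic, UA). All 6 colonies were granulocyte-macrophage colonies (CFU-GM) picked after 14 days in semi-solid medium (MethoCult H4435 Enriched). Their starting cells were CD34+ stem and progenitor cells from bone marrow, taken 15 months after the animals had received their own CRISPR/Cas9-treated CD34+ cells. Both groups therefore share the transplantation and the exposure to Cas9. TET2 encodes an enzyme that oxidizes methylated cytosine in DNA. Neither the number of animals nor the animal of each colony is in the labels. The p-values therefore cover only the spread among the 6 libraries, part of which may be technical.

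Megakaryocytes are the large marrow cells that shed platelets. Late in their maturation they load alpha granules with chemokines and adhesion proteins, cover their surface with the receptors that let platelets stick to damaged vessels, and build a ring of a lineage-restricted beta tubulin. A CFU-GM is scored for neutrophils and macrophages, and megakaryocytes are not part of its definition. Several of the 10 genes are also used elsewhere: VWF and SELP by endothelium, and ITGB3 by macrophages, osteoclasts and endothelium.

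Total counts ranged from 10574104 to 25485143 in the WT and from 6334264 to 17684447 in the UA libraries. Levels are given as CPM, the count scaled to a common library size with TMM, a factor that adjusts for RNA composition. A count of 3, the most that a count of 0 allows, corresponds to 0.137 CPM in the deepest and 0.443 CPM in the shallowest library, for counting error alone. TET2 itself had 79.3, 92.8 and 109 CPM in WT replicates 1 to 3 and 238, 225 and 229 CPM in UA replicates 1 to 3, so the higher level was in the group labelled as mutated. Edited alleles were not read, and this level does not check the labels. The UA libraries were much more alike than the WT ones: the biological coefficient of variation was 0.107 within UA and 0.311 within WT. They still differed by more than counting noise, since 51.6% of 13501 genes lay beyond the 95% point of a chi-square test of equal levels. Counts of calls for the members and for the lists of related genes are therefore also given after adding up the 3 UA libraries as 1 sample, which leaves WT as the source of the spread.

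In the UA-labelled libraries 9 of the 10 members were higher, by log2 fold changes (UA over WT, also given below as differences in log2 units) of 1.74 (TREML1, a platelet surface receptor) to 8.78 (PPBP, a platelet chemokine precursor), and the TUBB1 row was lower by 1.11. In 9 members every UA library lay above every WT library, and in TUBB1 every WT library lay above every UA library. Among all 13768 genes tested, 34.6% were called higher and 31.4% lower in UA (edgeR quasi-likelihood test, Benjamini-Hochberg adjusted p under 0.05), 39.2% had every UA library above every WT library, and 34.0% had every WT library above every UA library. A log2 fold change above 3 was called in 8 of 10 members and in 7.87% of all genes tested. The median log2 fold change was 5.46 over the 10 members and 0.12 over all genes tested. Summed, 9 members other than TUBB1 held 18.7 to 19.8 CPM in the WT libraries and 704 to 726 CPM in the UA libraries. With the UA libraries summed to 1 sample, 9 members were again called higher and 1 lower, where 21.4% of all genes were called higher and 17.5% lower. All 10 passed the low-count filter, but 6 of them (PF4, PPBP, ITGA2B, GP1BB, SELP and CLEC1B) were under its 0.886 CPM in at least 1 WT library and passed through the UA group. For these 6, passing and differing go together, and the count of calls is a description. In bulk RNA, fewer cells of a type and less RNA per cell cannot be told apart.

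**Figure D1:**
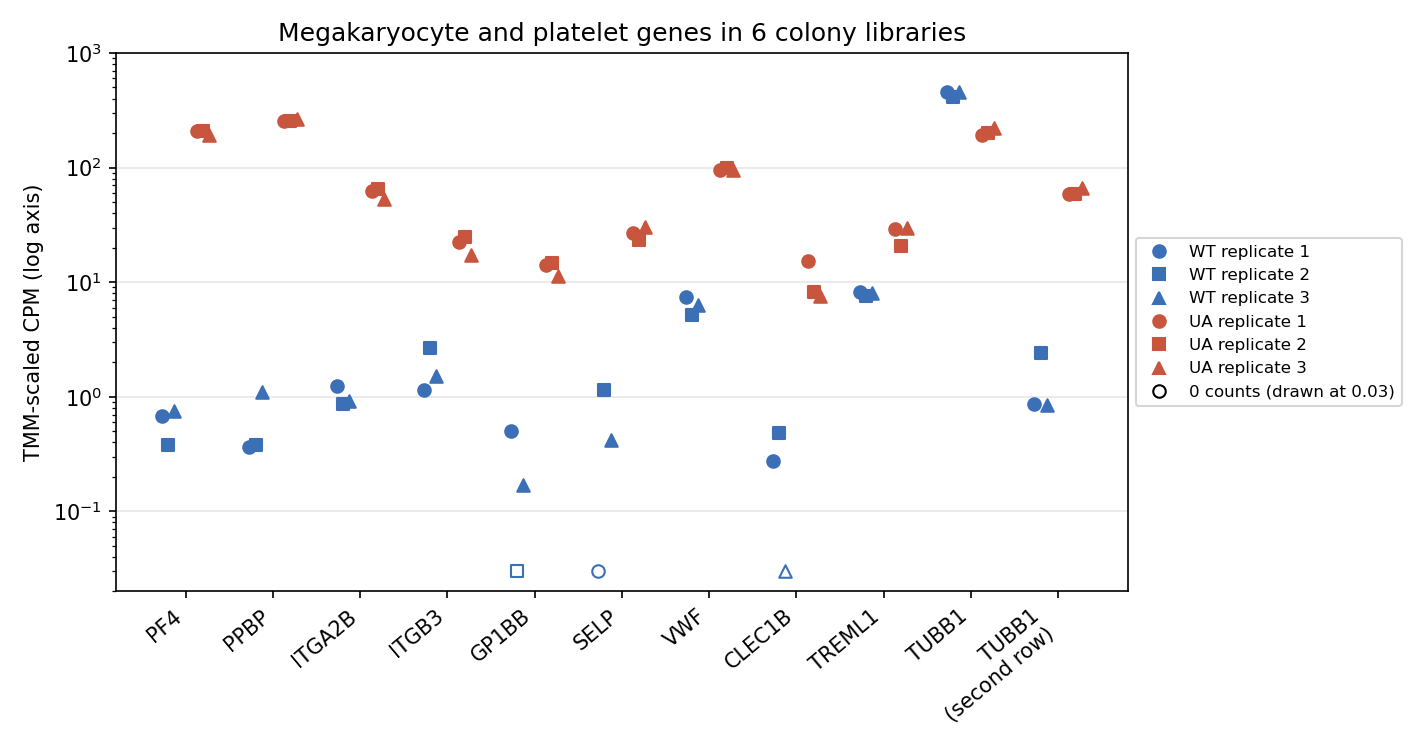
TMM-scaled CPM (log axis) of each member in each of the 6 libraries, 1 marker per library, with open markers for 0 counts. The points of 9 members sit higher in all 3 UA libraries than in any WT library, and the row named TUBB1 sits lower. The row drawn as TUBB1 (second row), whose identifier the authors' deposited table names TUBB1, rises from 1.37 to 61.2 CPM on average.

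The largest differences were in the alpha-granule chemokines. PF4, platelet factor 4, a heparin-binding CXC chemokine, had 15, 4 and 9 counts in WT replicates 1 to 3 and 3820, 2178 and 1314 counts in UA replicates 1 to 3. This corresponds to 0.609 ± 0.199 CPM in WT and 204 ± 8.27 CPM in UA (SD, n = 3 each), which is a difference of 8.32 ± 0.25 log2 units (SE; adjusted p = 6.18e-09 by edgeR). PPBP, whose product is cut to the neutrophil attractant NAP-2, had 8, 4 and 13 counts in WT and 4685, 2664 and 1786 in UA. Its mean was 0.614 ± 0.416 CPM in WT and 258 ± 5.16 CPM in UA (SD, n = 3 each), which is a difference of 8.78 ± 0.32 log2 units (SE; adjusted p = 1.95e-08 by edgeR). Within UA the highest library exceeded the lowest by a factor of 1.08 for PF4 and 1.04 for PPBP, so the groups are separated by far more than their own spread. Since the WT counts are so few, the size of the difference is less certain than its direction: PPBP stood at 9.40 without WT replicate 3, and PF4 at 9.17 with all libraries thinned to the smallest total.

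The pair are neighbours in the chemokine cluster of chromosome 5, with PPBP at 60675739 to 60679146 and PF4 at 60681874 to 60683243 according to the authors' deposited table, whose build is not named (Mmul_8.0.1 is named in the submitters' processing notes). PF4V1, a near-identical copy of PF4 at 60838693 to 60840023 in the same table, had 1, 0 and 12 counts in WT and 512, 258 and 168 in UA. The groups differed by 6.34 ± 0.69 log2 units (SE; adjusted p = 1.78e-05 by edgeR), or 5.58 without WT replicate 1 and 9.33 without WT replicate 3, which holds nearly all of its WT counts. The sources used here do not give how reads were shared between PF4 and its copy, so the division between them is uncertain.

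Both chains of the fibrinogen receptor were higher in UA. ITGA2B, the alpha chain that is made by the megakaryocyte lineage, had 1.23, 0.861 and 0.926 CPM in WT replicates 1 to 3 and 61.9, 64.6 and 53.6 CPM in UA. The groups differed by 5.84 ± 0.26 log2 units (SE; adjusted p = 5.94e-08 by edgeR). ITGB3, the beta chain, which other cells pair with a different alpha chain, had 1.14, 2.68 and 1.52 CPM in WT and 22.5, 24.7 and 17.4 CPM in UA, a difference of 3.65 ± 0.35 log2 units (SE; adjusted p = 8.32e-06 by edgeR). In both genes UA replicate 3 was the lowest UA library, and the groups did not overlap. ITGA2B lies on chromosome 16 at 50259830 to 50278141 and ITGB3 on the same chromosome at 40934967 to 41030194, in the authors' deposited table.

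The receptor for von Willebrand factor was less even. GP1BB, its beta chain, had 11, 0 and 2 counts in WT and 263, 152 and 76 counts in UA, or 0.224 ± 0.256 and 13.4 ± 1.86 CPM (SD, n = 3 each), with a difference of 5.57 ± 0.58 log2 units (SE; adjusted p = 1.3e-05 by edgeR). Every UA library was above every WT library. Of its 13 WT counts, 11 came from WT replicate 1, and without that library the log2 fold change was 7.08 (6.93 with limma-voom and 6.79 after thinning). The partner chains, chosen for naming after their values were seen, did not pass the test. GP1BA, the ligand-binding alpha chain, had 10, 7 and 0 counts in WT and 26, 18 and 12 in UA (difference 2.08 ± 0.86 log2 units (SE), adjusted p = 0.0519 by edgeR). GP1BA did pass with upper-quartile factors, library size alone, DESeq2, limma-voom (log2 fold change 3.16) and without WT replicate 2. GP9 had 5.71, 3.35 and 4.72 CPM in WT and 8.73, 5.29 and 8.86 CPM in UA, groups that overlap (log2 fold change 0.72, edgeR adjusted p = 0.0942). GP9 passed with library size alone (log2 fold change 0.90) and without WT replicate 1 (0.92). GP5, the remaining chain, was not analysed here.

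GP1BB lies on chromosome 10 from 61433855 to 61434756 and SEPTIN5, a septin gene, just beside it from 61424871 to 61433760, in the authors' deposited table. SEPTIN5, named for its position and after its values were seen, rose too, from 1.80 ± 0.684 to 18.7 ± 3.90 CPM (SD, n = 3 each), which is a log2 fold change of 3.35 (edgeR adjusted p = 1.47e-05). The libraries carry no strand, and transcripts running from one gene into the other were not examined.

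VWF and SELP are stored together in alpha granules, and in the Weibel-Palade bodies of endothelial cells. VWF, the multimeric protein that tethers platelets to collagen, had 7.36, 5.16 and 6.32 CPM in WT and 94.6, 98.7 and 95.8 CPM in UA, a difference of 3.93 ± 0.20 log2 units (SE; adjusted p = 1.32e-07 by edgeR). The UA libraries were nearly level with each other and all far above WT, where VWF was still well measured with 290 counts over the 3 libraries. VWF lies on chromosome 11 at 6165872 to 6354168 and SELP on chromosome 1 at 197994143 to 198036457, in the authors' deposited table. SELP, P-selectin, which moves to the surface of activated platelets and binds leukocytes, had 0, 12 and 5 counts in WT and 499, 241 and 205 counts in UA. The fitted log2 fold change of SELP was 5.95 (SE 0.67, edgeR adjusted p = 2.27e-05), 5.12 without WT replicate 1 and 7.34 without WT replicate 2. WT replicate 1 had no SELP count although it is the deepest library, and no WT library reached the UA range. Markers of endothelium moved with this pair: 12 of 15 tested rose and 1, EGFL7, fell (the same counts with the UA libraries summed), with summed levels of 374 to 477 CPM in WT and 819 to 857 CPM in UA. Among all genes tested, 34.6% were called higher and 31.4% lower in the fit of all 6 libraries, and smaller shares with the UA libraries summed. EGFL7 made up most of the WT sum of these markers, with a mean of 259 CPM in WT and 122 CPM in UA. PECAM1 was the largest part of the UA sum, with 26.8 CPM in WT and 189 CPM in UA. TIE1 and ICAM2 did not pass (log2 fold changes -0.19 and 0.28, edgeR adjusted p = 0.438 and 0.21). ERG and TEK rose by only 0.91 and 1.24 log2 units. Among the markers with larger rises, named after their values were seen, CDH5, the endothelial cadherin, had 1.24 ± 0.428 CPM in WT and 48.3 ± 2.47 CPM in UA (SD, n = 3 each). KDR, a VEGF receptor, had 1, 0 and 3 counts in WT and 552, 255 and 139 in UA, and MMRN2 had 0 counts in all 3 WT libraries. The part of endothelial transcripts in the VWF and SELP values was not tested.

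CLEC1B and TREML1 are receptors of the platelet surface, on chromosome 11 at 10340816 to 10348957 and on chromosome 4 at 42101507 to 42106210 in the authors' deposited table. CLEC1B, also called CLEC-2, the receptor for podoplanin, had 6, 5 and 0 counts in WT and 284, 85 and 51 counts in UA. It was the member whose UA libraries differed most, at 15.4, 8.17 and 7.53 CPM, with UA replicate 1 above the others by a factor of 2.04 over the lowest. The groups differed by 5.35 ± 0.66 log2 units (SE; adjusted p = 4.2e-05 by edgeR), 6.21 with limma-voom and 7.03 after thinning. TREML1, or TLT-1, which is held in alpha granules and binds fibrinogen, had 8.27, 7.65 and 8.0 CPM in WT and 29.2, 20.9 and 30.0 CPM in UA. This difference of 1.74 ± 0.24 log2 units (SE; adjusted p = 7.6e-05 by edgeR) was the smallest rise among the members, from a WT level that was even and rested on 356 counts.

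For TUBB1, the beta tubulin of the platelet marginal band, separate rows of the count table gave opposite answers. The count table names only 1 of them TUBB1, and the other has an identifier that the authors' deposited table names TUBB1. The row named TUBB1, which has the highest total and is the one the rule takes, had 456, 411 and 453 CPM in WT and 191, 199 and 220.2 CPM in UA. It fell by 1.11 on the log2 scale (SE 0.14, edgeR adjusted p = 4.18e-05, and 0.0204 with the UA libraries summed). The row with the identifier ENSMMUG00000013187, which the authors' deposited table calls tubulin beta 1 class VI, had 19, 25 and 10 counts in WT and 1086, 607 and 450 counts in UA. This row rose from 1.37 ± 0.887 to 61.2 ± 4.54 CPM (SD, n = 3 each), which is a difference of 5.56 ± 0.36 log2 units (SE; adjusted p = 7.53e-07 by edgeR). With this row in place of the other, 10 of 10 members were called higher and 0 lower, an alternative added after the data were seen (0 were lower also at an unadjusted p under 0.05, and with DESeq2 and limma-voom). The row ENSMMUG00000013187 reached the low-count filter's 0.886 CPM in only 1 WT library and passed through the UA group. For it too, passing and differing go together, and the count of 10 is a description.

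**Figure D2:**
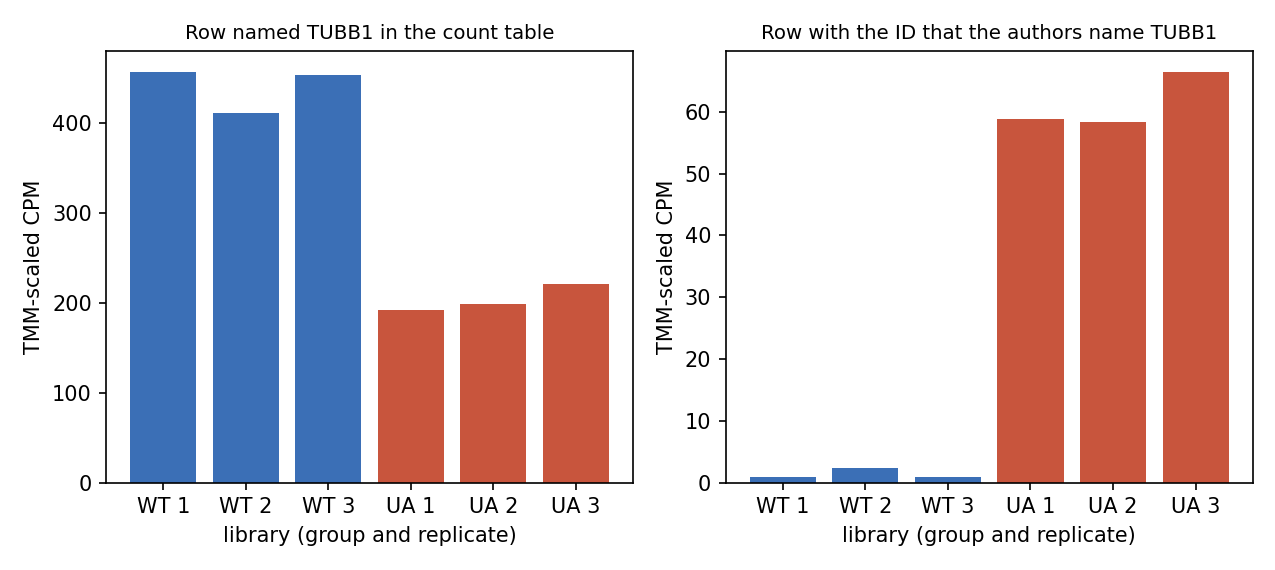
TMM-scaled CPM in each library of the row named TUBB1 and of the row ENSMMUG00000013187, with separate linear axes that start at 0. The row named TUBB1 stands between 411 and 456 CPM in WT and between 191 and 220.2 CPM in UA, while the row with the identifier that the authors' table names TUBB1 is at most 2.39 CPM in WT and at least 58.4 CPM in UA.

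Names and neighbours separate these rows. The authors' deposited table places ENSMMUG00000013187 on chromosome 10 at 5375772 to 5383678, next to CTSZ and NELFCD, and RefSeq (T2T-MMU8v2.0) also lists TUBB1 beside CTSZ and NELFCD on chromosome 10. The table of gene names pairs the symbol TUBB1 with another identifier, ENSMMUG00000012164, which has no row of its own in the count table. In the authors' deposited table that identifier is TUBB4B, a widely expressed beta tubulin, on chromosome 15 at 1013672 to 1036872, near TOR4A, NELFB, STPG3 and RNF224. RefSeq lists TUBB4B, and not TUBB1, among the same neighbours on chromosome 15. The count table does not itself say which identifier stands behind its row named TUBB1, so its fall is reported for that row and not as a fall of the platelet tubulin. The same pairing for PPBP and GP1BB, the other members counted on rows named by symbol, led to an entry with the member's own description. ITGB3 and TREML1 rest on the table of gene names alone, since the authors' deposited table gives their identifiers neither symbol nor description.

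Beyond the members, 5 lists of megakaryocyte and platelet genes moved both ways. Of 83 tested, 38 were higher in UA (45.8%, against 34.6% of all genes tested) and 24 lower (28.9%, against 31.4%), with a median log2 fold change of 0.39. A called log2 fold change above 3 was seen in 7 of the 83, a share close to the 7.87% of all genes tested. With the UA libraries summed, 30 were higher and 11 lower. By list and without that summing, the shares higher and lower were 57.1% and 7.14% for receptors and 62.5% and 25.0% for alpha-granule genes. They were 23.5% and 41.2% for signalling genes, 52.6% and 26.3% for cytoskeleton genes, and 35.3% and 41.2% for transcription factors. Among all genes tested they were 34.6% and 31.4%. These lists were written with earlier results of these data known, and their counts are set beside the background as a description. With the UA libraries summed, smaller shares of all genes were called. Those shares, given above with the members, are the background for the summed counts here and in the lists below.

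**Figure D3:**
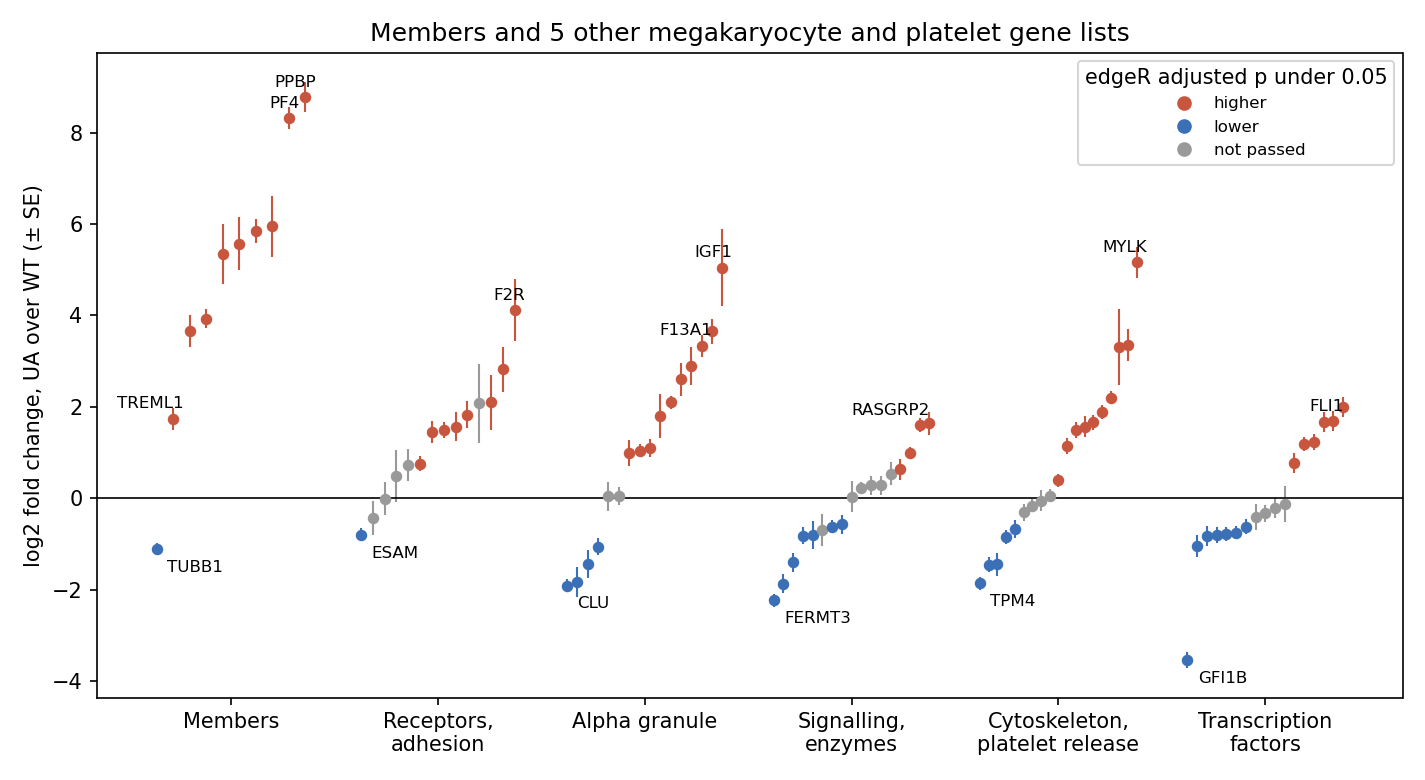
Log2 fold change of UA over WT with its SE for each tested gene, the 10 members first and then the 5 other lists, coloured by the edgeR call. The members reach from TUBB1 at -1.11 to PPBP at 8.78, while the transcription factors reach from GFI1B at -3.54 to IKZF5 at 1.99.

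Platelet receptors and adhesion genes were called higher in 8 of 14 and lower in 1, or 6 and 0 with the UA libraries summed. P2RY1, an ADP receptor, rose from 9.46 ± 1.87 to 25.7 ± 2.37 CPM and TBXA2R, the thromboxane receptor, from 7.82 ± 3.88 to 23.2 ± 1.88 CPM (SD, n = 3 each). CD9, a tetraspanin, rose by 1.49 log2 units, ITGA2, a collagen receptor chain, by 1.83, and P2RX1, an ATP-gated channel, by 0.76. ESAM, an adhesion molecule of platelets and endothelium, was the 1 gene called lower, with a log2 fold change of -0.80. With the UA libraries summed, ESAM and P2RX1 were not called (edgeR adjusted p = 0.0893 and 0.0728). Chosen after their values were seen, F2R, the thrombin receptor PAR1, had a log2 fold change of 4.12 (5.24 without WT replicate 3, 5.35 with limma-voom and 4.88 after thinning), and P2RY12, the target of clopidogrel, one of 2.82.

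Alpha-granule cargo and assembly genes were called higher in 10 of 16 and lower in 4 (8 and 4 with the UA libraries summed), so that the granule list did not follow PF4 and PPBP as a whole. F13A1, a clotting factor subunit that macrophages also make, rose from 34.4 ± 11.2 to 346 ± 5.77 CPM (SD, n = 3 each; log2 fold change 3.34, edgeR adjusted p = 1.29e-06). SRGN, the granule proteoglycan of many blood cells, and TGFB1, a growth factor that platelets store, rose by 2.10 and 1.04 log2 units. The 4 lower genes were CLU, MMRN1, THBS1 and CD63, with log2 fold changes of -1.91, -1.84, -1.44 and -1.06. MMRN1, multimerin, an alpha-granule protein that binds factor V, had 153, 470.3 and 370.4 CPM in WT and 103, 90.2 and 83.9 CPM in UA. THBS1, thrombospondin, had 45.1, 121 and 112 CPM in WT and 33.98, 35.3 and 33.5 CPM in UA. In both, WT replicate 1 was the WT library closest to UA, and the groups did not overlap.

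Platelet signalling genes and enzymes were called higher in 4 of 17 and lower in 7 (3 and 3 with the UA libraries summed), with a median log2 fold change of 0.03. FERMT3, kindlin-3, which activates the platelet integrin and is shared by all leukocytes, fell from 776 ± 57.7 to 165 ± 7.04 CPM (SD, n = 3 each; log2 fold change -2.23, edgeR adjusted p = 5.16e-07). RASGRP2, the exchange factor upstream of that integrin, rose by 1.60 and PLEK, pleckstrin, by 0.99. BIN2 had a log2 fold change of -0.62 and STXBP5 of -0.57. Neither held when the UA libraries were summed (edgeR adjusted p = 0.189 and 0.285), and STXBP5 was also lost with upper-quartile factors, with library size alone, and when WT replicate 2 or 3 or any UA library was left out (0.0654 to 0.144). SYK, the kinase that CLEC1B signals through, had a log2 fold change of 0.23 and did not pass (edgeR adjusted p = 0.156), although it did with library size alone (0.38) and without WT replicate 1 (0.18). The enzymes that make thromboxane, named after their values were seen, were lower: TBXAS1 had a log2 fold change of -1.87 and PTGS1 of -0.82, the latter not called with the UA libraries summed (edgeR adjusted p = 0.135).

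Cytoskeleton and platelet-release genes were called higher in 10 of 19 and lower in 5, or 8 and 3 with the UA libraries summed. MYH9, the heavy chain of non-muscle myosin II, rose from 136 ± 24.7 to 504 ± 5.14 CPM and FLNA, filamin A, from 194 ± 40.7 to 546 ± 39.1 CPM (SD, n = 3 each). TMSB4X, thymosin beta 4, and TPM4, a tropomyosin, had log2 fold changes of -1.45 and -1.86. ACTN1 and TLN1 did not pass, with log2 fold changes of -0.16 and 0.06, though ACTN1 was called lower without WT replicate 1 (-0.24) and with limma-voom (-0.22). TUBA4A, an alpha tubulin of platelets, and MYLK, myosin light chain kinase, both named after their values were seen, rose by log2 fold changes of 2.20 and 5.16.

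The transcription factors that drive the megakaryocyte programme had no common direction, with 6 of 17 called higher and 7 lower (5 and 1 with the UA libraries summed) and a median log2 fold change of -0.33. The share of these factors called higher was 35.3%, near the 34.6% of all genes tested, and the share lower was 41.2%, against 31.4%. Their summed level was 1157 to 1211 CPM in WT and 1185 to 1230 CPM in UA, ranges that overlap. FLI1, an ETS factor that binds many platelet gene promoters, rose from 51.2 ± 13.5 to 165 ± 7.16 CPM (SD, n = 3 each; log2 fold change 1.69, edgeR adjusted p = 3.88e-05). ETV6 and IKZF5, both linked to inherited platelet disorders, rose by log2 fold changes of 1.23 and 1.99. LMO2, NFE2, which drives platelet release, and GATA2 had log2 fold changes of -0.78, -0.62 and -0.75. None of these 3 was called with the UA libraries summed (edgeR adjusted p = 0.103, 0.195 and 0.124). A further 3 were named after their values were seen. RUNX1 rose by 1.19 on the log2 scale. GATA1, the factor shared by megakaryocytes, red cells, mast cells and eosinophils, had 21.7, 16.5 and 23.0 CPM in WT and 17.5, 19.0 and 16.4 CPM in UA, overlapping groups (difference -0.21 ± 0.22 log2 units (SE), adjusted p = 0.412 by edgeR). GFI1B, a repressor needed for megakaryocyte and red cell development, had 144, 133 and 131 CPM in WT and 12.6, 12.3 and 9.89 CPM in UA, a difference of -3.54 ± 0.18 log2 units (SE; adjusted p = 1.27e-07 by edgeR).

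Markers of other cell types moved in the same libraries, where 34.6% of all genes tested were called higher and 31.4% lower. These shares are from the fit with the UA libraries kept apart, and smaller shares were called with them summed. Stromal markers rose in 8 of 9 and fell in 1, from sums of 111 to 127 CPM in WT to 934 to 966 CPM in UA. Different genes made up these sums. Most of the WT sum was DCN, the 1 that fell, with a mean of 113 CPM in WT and 21.6 CPM in UA. Most of the UA sum was COL1A1 and COL1A2, with means of 0.810 and 0.942 CPM in WT and 319 and 560 CPM in UA. Markers of mast cells, basophils and eosinophils rose in 6 of 8 and fell in 1, from sums of 116 to 120.3 CPM to 1495 to 1597 CPM, with IL5RA at 0 counts in all 3 WT libraries. Most of that UA sum was EPX and PRG3, with means of 877 and 499 CPM in UA. CPA3, MS4A2 and FCER1A rose by log2 fold changes of 0.58, 1.15 and 2.43. HDC did not pass (log2 fold change -0.30, edgeR adjusted p = 0.16), and IL1RL1 was the 1 that fell (-3.63). Neutrophil markers rose in 8 of 11 and fell in 2, from sums of 1320 to 1511 CPM to 24406 to 25270 CPM. Monocyte and macrophage markers rose in 6 of 11 and fell in 2, from sums of 1739 to 2172 CPM to 8086 to 8233 CPM. Most of that UA sum was LYZ, with a mean of 464 CPM in WT and 7600 CPM in UA. From the neutrophil list, MPO, the neutrophil peroxidase, had a mean of 810.4 CPM in WT and 16743 CPM in UA. CD14, a monocyte receptor and 1 of the 2 lower genes of its list, had 1147 CPM in WT and 21.7 CPM in UA. Neither MPO nor CD14 was absent from either group. Of 8 erythroid markers, 5 rose and 3 fell, from sums of 390.0 to 394 CPM to 635 to 681 CPM. Most of that UA sum was TFRC, with a mean of 92.4 CPM in WT and 569 CPM in UA. The 3 lower ones included RHAG, a red cell membrane protein, which went from a mean of 214 to 12.9 CPM, a log2 fold change of -4.06. The call of HBA, an alpha globin and 1 of these 3, was lost in 8 of 16 alternatives (edgeR adjusted p = 0.0519 to 0.236). With the UA libraries summed, the counts higher and lower were 7 and 1 for stromal, 5 and 1 for mast cell, basophil and eosinophil, 6 and 2 for neutrophil, 6 and 1 for monocyte and macrophage, and 2 and 1 for erythroid markers. No stromal gene but NES, which was not tested, was at 0 in all WT libraries, and no gene of the neutrophil, monocyte or erythroid lists was. Their part in the values of the 10 members was not tested.

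**Figure D4:**
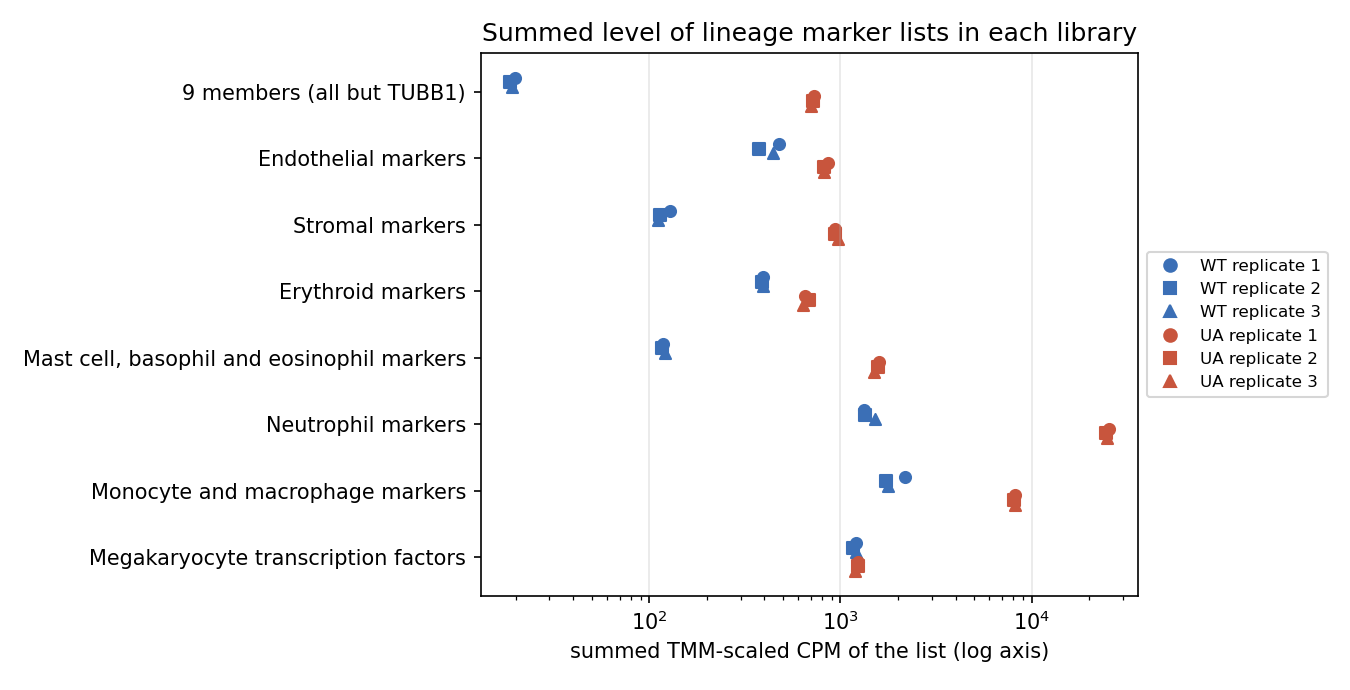
Summed TMM-scaled CPM (log axis) of 9 members and of each marker list, 1 marker per library. The 9 members rise from at most 19.8 CPM in WT to at least 704 CPM in UA, most other lists rise in the same libraries, and the transcription factors stay between 1157 and 1230 CPM. In UA the erythroid sum is mostly TFRC, and the monocyte and macrophage sum is mostly LYZ. The UA stromal sum is mostly COL1A1 and COL1A2, and the UA sum for mast cells, basophils and eosinophils is mostly EPX and PRG3. In WT the stromal sum is mostly DCN and the endothelial sum mostly EGFL7, and both of these genes are lower in UA.

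The genes whose profile over the 6 libraries was most like that of PF4 were not mainly platelet genes. Likeness was the root mean square difference of log2 CPM, each gene centred on its own mean, over 9385 genes with a symbol and a mean of at least 5 CPM. The 5 nearest to PF4 were COL1A1, a collagen chain (0.252), TIMD4, a macrophage receptor (0.292), BPI, a neutrophil granule protein (0.383), PPBP (0.399) and IBSP, a bone matrix protein (0.455). Among the 5 nearest to the row named TUBB1 were IFI30, STK25, AP1M1 and TRMT1, at 0.056 to 0.073. Nearest to the row ENSMMUG00000013187 were SPTB, CD4, MYLK, CAV1 and RAG2, at 0.122 to 0.295. Over 6 libraries in separated groups, this measure mostly reflects the size of the difference between the groups in that log2 CPM. The count of 2 added before taking logs limits this size for genes with almost no WT counts. TIMD4, BPI and IBSP had WT means of 0.0152, 0.0433 and 0.0305 CPM, so their likeness to PF4 rests partly on it. COL1A1 and PPBP had WT means of 0.810 and 0.614 CPM, near the 0.609 CPM of PF4.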

How the data were processed

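Single colonies were split for DNA and RNA, and cDNA was made with the SMART-Seq V4 kit and Nextera XT libraries, per the labels' protocols; the kit marks neither strand nor molecule, so PCR copies count as reads. The authors deposited raw counts per gene for 6 libraries. Mmul_8.0.1 and bcl2fastq are named in the submitters' processing notes, while the sources used here give neither the aligner nor the counter. The authors also deposited a table with coordinates and, per the file headers, a p-value, a log2 fold change and a mean signal over normalized counts. Which libraries it compares is not stated. Its mean exceeds the count in every library for 10390 of 20091 shared rows (13276 against at most 3820 counts for PF4, in the authors' deposited table), so only its names and coordinates were used.

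Members were matched by row name (3), the authors' table (4) or a table of gene names (3). Counts were tested with edgeR 4.0.16 (R 4.3.3; limma 3.58.1 and DESeq2 1.42.0 for alternatives), with label as the only term, robust=TRUE, TMM factors and filterByExpr defaults (minimum count 10, total 15). A standard error is the log2 fold change over the square root of F. On simulated counts for this comparison (13768 genes) the fit recovered 59% of genes changed by 1 and 94% of those changed by 2 on the log2 scale, with 4 false of 157 calls. Changed genes were few and well counted there, and both groups were given the same spread. The rates therefore do not describe members with few WT counts, nor groups of unequal spread as here. Named genes were all members and up to 6 of highest mean CPM per list, plus the genes of any count of 5 or fewer, with other names marked. The members and lists were chosen with earlier results of these data known. Log2 CPM used a prior count of 2. Alternatives were other scalings, filters and tests, a replicate block, leaving out each library, summing the UA libraries and thinning to the smallest total. No sequences were used here.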

Additional observations from a re-analysis of the deposited data

How the results depend on the processing

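Across 16 alternatives each, all 10 members and the second TUBB1 row kept their direction and stayed under an adjusted p of 0.05, the largest being 0.0204 for the row named TUBB1 with the UA libraries summed. That setting also moved the count of all genes called from 9091 to 5360. Taking TUBB1 from the row the authors' table names, a choice made after seeing the data, moved the members called lower from 1 to 0. With a replicate block (replicate number as a term) 9 members were called higher and 1 lower, as without it, and 38 of the other megakaryocyte and platelet genes were higher. The deviations of same-numbered libraries correlated by 0.013 to 0.022, so the numbers were not taken as pairs. Leaving out 1 library at a time gave 7916 to 9949 genes called, 9 to 9 members higher, 1 to 1 lower and 35 to 43 of the other genes higher. With 1 library left out, TLN1, not called, ranged from -0.047 without WT replicate 2, where it changed sign, to 0.17 without WT replicate 1. Among the members, GP1BB, SELP and CLEC1B had the fewest WT counts, each with 11 to 17 over the 3 WT libraries. The cause of their shifts between settings was not tested.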

Other observations

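The double naming of TUBB1 is not unique in this count table. Of its 32386 rows, 2529 are named by symbol and not by identifier, and 40 of those symbols also stand on a row named by identifier once names are filled in. For 1304 symbol-named rows the table of gene names gives a single identifier that has a symbol in the authors' deposited table, and for 65 of them (4.98%) the symbols differ, as TUBB1 and TUBB4B do. For the other rows this was not examined.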
